A study of Mus musculus with 4 samples.

Results

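CCR7+ CD4 T cells are those to which the authors' annotation gives the label CCR7+ CD4, which came from clusters of nuclear RNA. They are 289 of 15621 labelled cells, 125 in cecum tissue and 164 in tumor tissue. T cells were sorted from primary AKP tumors and from tumor-free cecum beside them, 4 weeks after AKP organoids had been injected into the wall of the mouse cecum. AKP organoids are engineered mouse intestinal tumor organoids that lack Apc and Trp53, maintained as a single organoid line, and both tissues came from tumor-bearing mice with no further treatment named in the labels. Nuclei were profiled with a multiome assay, which reads RNA and accessible chromatin (ATAC) from the same nucleus, and the ATAC fragments were analysed here, with 1 library per tissue. The strain, genotype, age and number of the mice in each library are not given in the sources used here. The methods of the study state that mice were perfused before cells were isolated for sorting.

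CCR7 is the chemokine receptor that guides T cells into lymph nodes along CCL19 and CCL21. Naive and central memory T cells carry it, and S1PR1, kept on by the factor KLF2, lets them leave lymph nodes again. TCF-1 (Tcf7), LEF1, SATB1, FOXP1 and BACH2 are nuclear factors of resting T cells, and activation and effector differentiation usually close part of this programme while opening genes for cytokines, cytotoxic granules and inhibitory receptors. Because the labels came from RNA, accessibility is a second readout of the same nuclei.

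The cecum library held 66466111 fragments and the tumor library 96747563, with a median of 4374 and 5846 fragments per labelled cell and 84 labelled barcodes present in both libraries. Of these 84 barcodes, 2 were CCR7+ CD4 cells, both in the cecum. Accessibility of a gene was the number of fragments with an end inside its window, the gene with 5 kb on either side, scaled to 1000000 fragments of the label (FPM). Bracketed ranges are exact 95% intervals, which cover counting error only. With 1 library per tissue there was no replicate and no test, so a gene or region was counted as higher or lower when its log2 ratio, with 1 FPM added, reached 1 or -1 (2-fold) in both libraries. Genes entered these counts when the mean of the groups compared was at least 20 FPM in both libraries.

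CCR7+ CD4 cells made up 1.75% [1.46, 2.08] of labelled cecum cells and 1.94% [1.65, 2.25] of labelled tumor cells, and the intervals overlapped. Without cells above 3 times the library median the cecum share fell, the tumor share rose, and the intervals, which cover counting error only, did not overlap. That cut in depth took out 44 of the 125 cecum cells of this label and 1 of its 164 tumor cells. Among the cells of the 9 CD4 labels their share was 4.07% [3.40, 4.83] and 5.35% [4.58, 6.21]. They gave 1192883 fragments for the cecum and 729919 for the tumor. Their median depth was lower in the tumor than in the cecum, as in 2 of the other labels and unlike the remaining 14. In the cecum the median was 8588 fragments per cell, the highest of the 17 labels, and 44 of 125 cells (35.2%) lay above 3 times the library median. In the tumor the median was 3898.5, the lowest of the 17 labels, and 1 of 164 cells lay above that limit. The share of fragments shorter than the DNA of a nucleosome was 43.2% for the cecum and 47.8% for the tumor, and 43.6% and 45.9% of fragments lay near gene ends.

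Ccr7 and Lef1, markers of these cells, were more accessible than in the other CD4 labels together, while the interval for Cd4, the other gene in the name, included 0 in both libraries. The Ccr7 window (chr11:99144199-99155077 in mm10, before the flanks) stood at 223 FPM [197, 251] for the cecum and 211 FPM [179, 247] for the tumor, the highest level of the 17 labels in either library. CCR7+ CD8 cells followed with 204 FPM and 180 FPM, with intervals that overlapped those of CCR7+ CD4, and the third label reached 101 FPM in the cecum (Tfh-like) and 102 FPM in the tumor (Newly activated CD4). Against the other 8 CD4 labels together, which stood at 65.3 and 80.6 FPM, the log2 ratio of Ccr7 was 1.77 [1.57, 1.96] for the cecum and 1.39 [1.14, 1.63] for the tumor.

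Lef1, which encodes a high mobility group factor that acts with TCF-1, stood at 539.9 and 553 FPM, beside 558 and 525 FPM in CCR7+ CD8 cells and 403 and 320 FPM in Innate-like T#2 cells, the third label. Its log2 ratio over the other CD4 labels was 1.29 [1.17, 1.41] for the cecum and 1.32 [1.17, 1.46] for the tumor, and 0.71 and 0.55 within 1 kb of either gene end. The window of Cd4, the co-receptor, which overlaps those of P3h3 and Gpr162, stood at 94.7 and 94.5 FPM against 92.0 and 76.3 FPM, with log2 ratios of 0.04 [-0.25, 0.32] and 0.31 [-0.06, 0.66], intervals that included 0. The CD4 labels with at least 50 cells ranged from 70.3 FPM (IL-10- Treg) to 109.6 FPM (Mucosal Th1) for the cecum and from 66.0 to 99.6 FPM, in the same labels, for the tumor, while CCR7+ CD8 cells stood at 73.2 and 64.2 FPM.

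**Figure D1:**
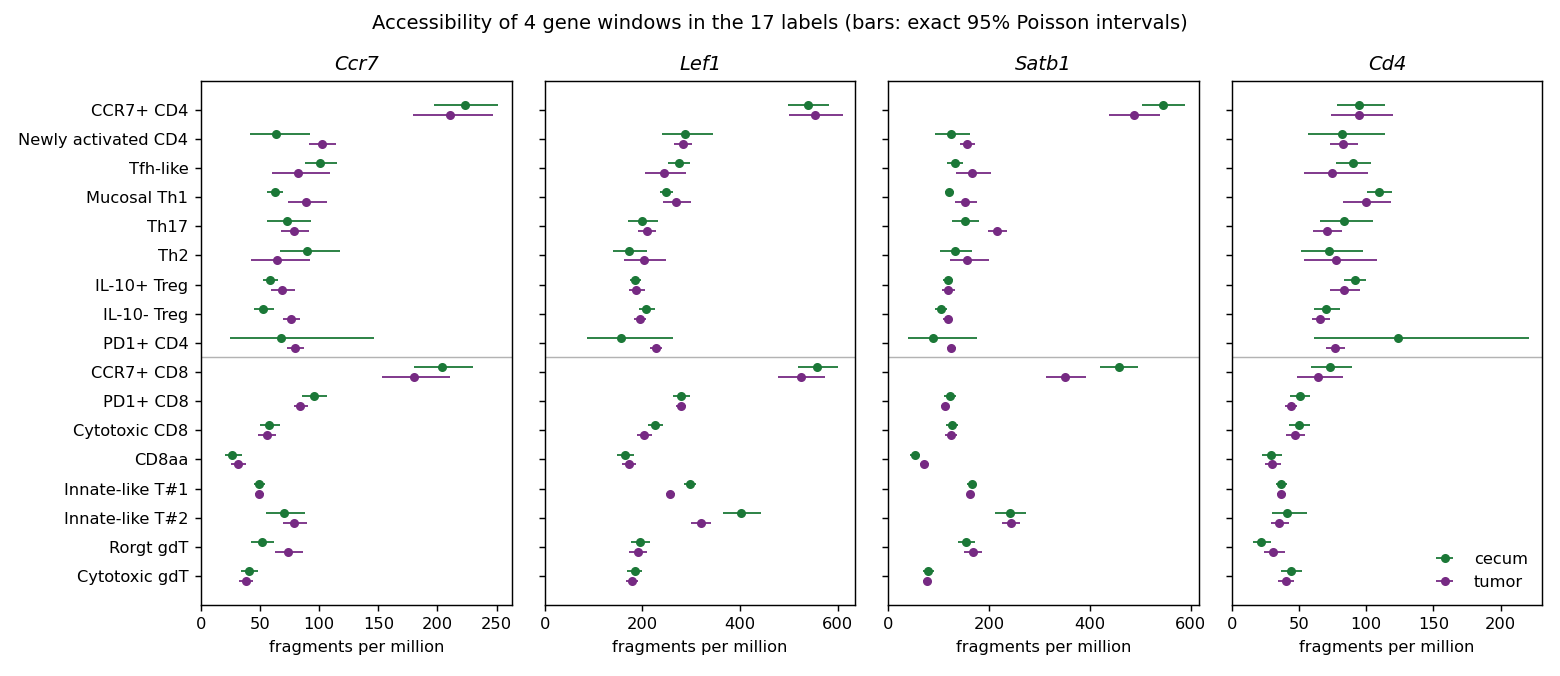
FPM in the windows of Ccr7, Lef1, Satb1 and Cd4 (horizontal axes) for each of the 17 labels, CD4 labels above the grey line, with the cecum in green, the tumor in purple and exact 95% intervals as bars. CCR7+ CD4 and CCR7+ CD8 stand apart from the other labels for Ccr7, Lef1 and Satb1, and for Cd4 the level of CCR7+ CD4 is 94.7 and 94.5 FPM.

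The naive and recirculation list, 16 genes of which 15 reached the minimum, lay above the other CD4 labels, with medians of 0.87 for the cecum and 0.77 for the tumor on the log2 scale against 0.025 and 0.072 over all 11789 genes. At least 2-fold higher in both libraries were 4 of the 15, among them Ccr7, Lef1 and Satb1, beside 1.44% of all genes, and none was 2-fold lower, beside 1.66%. Over all 16 genes, 11 had their highest level of all CD4 labels with at least 50 cells in CCR7+ CD4 cells in both libraries. Of the 15 at the minimum these were 10, beside 9.81% of all 11789 genes.

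Satb1, a chromatin organizer of thymocytes and resting T cells, had the largest difference of the list that reached the minimum. It stood at 545 FPM for the cecum and 486 FPM for the tumor against 121 and 139.5 FPM in the other CD4 labels, with log2 ratios of 2.17 [2.05, 2.30] and 1.80 [1.64, 1.96]. CCR7+ CD8 cells had 457 and 350 FPM, with intervals below those of CCR7+ CD4 in both libraries. S1pr1 had log2 ratios of 1.19 [0.89, 1.47] and 0.90 [0.51, 1.27], and Klf2 had 0.72 [0.51, 0.92] and 0.77 [0.50, 1.04].

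Among the nuclear factors of the list, Foxp1 had log2 ratios of 0.98 and 1.12, Bach2 0.87 and 0.76, and Tcf7 0.80 and 0.77. The survival gene Bcl2 had 0.78 and 0.51. A pair of regulators of this programme had intervals that included 0. Foxo1, which drives Klf2, had -0.09 [-0.26, 0.08] and 0.05 [-0.18, 0.28], and Il7r, the receptor chain for IL-7, had 0.17 [-0.19, 0.50] and -0.06 [-0.56, 0.39]. Dapl1, the member below the minimum, had 35 fragments for the cecum and 24 for the tumor, or 29.3 and 32.9 FPM against 3.0 and 3.4 FPM, with log2 ratios of 3.30 [2.64, 3.94] and 3.29 [2.56, 3.97].

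**Figure D2:**
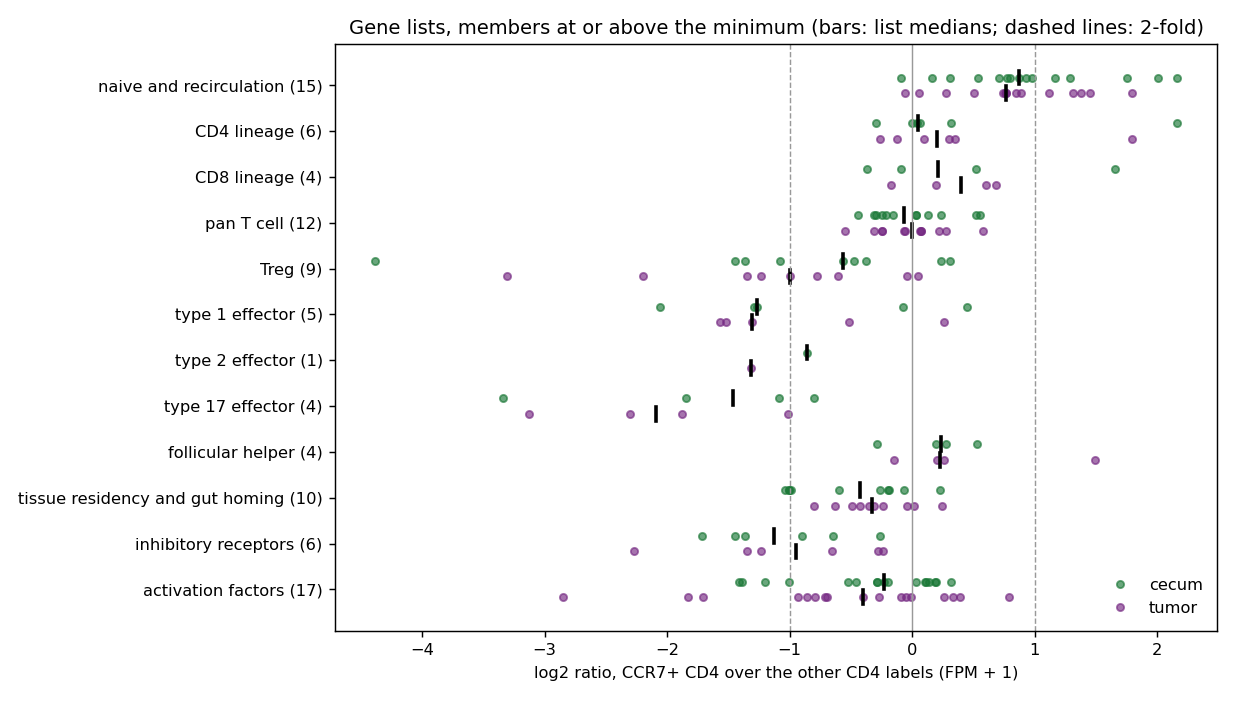
Log2 ratio of CCR7+ CD4 over the other CD4 labels, with 1 FPM added (horizontal axis), for each member of 12 gene lists that reached the minimum, whose number is given in brackets. Points are genes in the cecum (green) and tumor (purple), black bars are list medians and dashed lines mark 2-fold. The naive and recirculation members lie mostly right of 0, with medians of 0.87 and 0.77, and the type 1, type 17 and inhibitory receptor medians lie left of it. Within 1 kb of either gene end the type 1 median of the tumor is -0.081.

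The part of a gene that differed was not the same for every member. The start site used for a gene was the RefSeq start (build GRCm38.p6) with the most fragments over all labelled cells. For Lef1 it lies inside the gene (chr3:131112791, downstream of the gene's first base at 131110297), so the 5′ end of Lef1 counts with the rest of its window. Within 1 kb of this start, Lef1 stood at 47.8 FPM for the cecum and 45.2 FPM for the tumor against 37.7 and 40.0 FPM in the other CD4 labels, with log2 ratios of 0.34 [-0.07, 0.73] and 0.18 [-0.37, 0.68]. The rest of its window had 1.43 [1.30, 1.55] and 1.48 [1.32, 1.63]. Satb1 had 1.03 [0.67, 1.36] and 0.94 [0.51, 1.34] at the start site and 2.45 [2.31, 2.59] and 2.03 [1.85, 2.20] in the rest of the window. The profiles of these genes show more signal over the gene body in CCR7+ CD4 and CCR7+ CD8 cells than in the other CD4 labels.

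Gene lists of other CD4 states held lower members. The Treg list had medians of -0.56 for the cecum and -0.998 for the tumor, with 4 of 9 members at least 2-fold lower in both libraries, beside 1.66% of all genes. These were Il10 (-4.74 [-6.62, -3.38] and -3.52 [-5.40, -2.17], from 4 fragments in each library), Ikzf2, which encodes Helios (-1.08 [-1.35, -0.83] and -2.22 [-2.71, -1.77]), and the inhibitory receptors Ctla4 (-1.38 and -1.37) and Tigit (-1.46 and -1.24). Foxp3, the lineage factor of Treg cells, stood at 45.3 FPM against 67.2 FPM for the cecum and 27.4 FPM against 47.5 FPM for the tumor. Its log2 ratios were -0.57 [-0.99, -0.18] and -0.79 [-1.51, -0.16], which did not reach 2-fold. The reference includes both Treg labels, which stood at 101.8 FPM (IL-10+) and 97.3 FPM (IL-10-) for the cecum. CCR7+ CD4 cells ranked 3 for Foxp3 among the CD4 labels with at least 50 cells in the cecum, directly after these, and 7 in the tumor.

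The type 1 effector list had 5 of 9 members at the minimum, with medians of -1.27 and -1.31. Within 1 kb of either gene end, in place of the whole window, the tumor median was -0.081. At least 2-fold lower in both libraries were 3 of the 5, beside 1.66% of all genes: Tbx21, which encodes T-bet (-2.12 [-2.79, -1.51] and -1.60 [-2.30, -0.99]), Nkg7, a cytotoxic granule protein (-1.34 and -1.60, in a window shared with 4 neighbours), and Hopx (-1.32 and -1.33). Ifng, below the minimum, had 1 fragment in the cecum (log2 ratio -4.69 [-9.99, -2.20]) and none in the tumor, where a floor of 3 fragments per library puts it at least 5.64-fold lower.

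In the type 17 list 3 of 4 members at the minimum were lower, out of 7 in all and beside 1.66% of all genes, with medians of -1.47 and -2.09, the latter -1.06 within 1 kb of either gene end. Among them Ccr6, a receptor for CCL20, had 4 fragments in each library (-3.69 [-5.57, -2.32] and -3.35 [-5.23, -1.99]) and Il1r1 had 18 and 12 (-1.91 and -1.94). Il17a had no fragment in either library, at least 5.32-fold lower for the cecum and 2.82-fold lower for the tumor at the same floor. Of 6 type 2 genes, Il1rl1 alone reached the minimum (-0.87 [-1.31, -0.47] and -1.34 [-1.90, -0.83]), and within 1 kb of either gene end the list values were 0.26 and -0.25, the opposite direction for the cecum.

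Inhibitory receptors and activation factors held 3 lower members each, beside 1.66% of all genes. Of 6 inhibitory receptors at the minimum, Havcr2, which encodes TIM-3 (-1.76 [-2.38, -1.20] and -2.33 [-3.20, -1.58]), was lower beside Tigit and Ctla4, and Pdcd1, which encodes PD-1, had -0.90 and -0.66. Of 17 activation factors, Bhlhe40 (-1.42 and -1.84), Rora (-1.39 [-1.56, -1.23] and -1.71 [-1.93, -1.50]) and Ahr (-1.22 [-1.73, -0.76] and -2.996 [-4.44, -1.87]) were lower. The medians were -1.13 and -0.94 for the inhibitory receptors and -0.23 and -0.40 for the activation factors, the latter -0.014 within 1 kb of either gene end. The immediate early gene Jun had 0.32 [0.13, 0.51] and 0.80 [0.58, 1.01], and Fos had 0.10 [-0.16, 0.36] and -0.28 [-0.67, 0.10].

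Follicular helper, residency and pan T cell genes held no member past 2-fold in both libraries. Of 4 follicular helper genes (medians 0.24 and 0.23, the former 0.60 within 1 kb of either gene end) Cxcr5 had 0.28 [0.02, 0.52] and 0.26 [-0.09, 0.59] and Bcl6 had 0.20 and 0.20. Of 10 genes of tissue residency and gut homing (medians -0.43 and -0.33) Itgae, the integrin chain CD103, had -1.02 [-1.37, -0.68] and -0.81 [-1.22, -0.43], and Itgb7 had -0.19 and 0.25. The 12 pan T cell genes had medians of -0.06 and 0.0023.

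Of 6 CD4 lineage genes, Satb1, which is also in the naive and recirculation list, was higher, beside 1.44% of all genes (medians 0.05 and 0.20), and of 4 CD8 lineage genes at the minimum none passed 2-fold in both libraries (0.21 and 0.40, the former 0.62 without cells above 3 times the library median). Zbtb7b, which encodes the CD4 lineage factor ThPOK, had log2 ratios of 0.32 [0.11, 0.52] and 0.36 [0.08, 0.62]. Cd8b1, a CD8 co-receptor chain, stood at 36.9 FPM against 11.01 FPM for the cecum and 24.7 FPM against 15.9 FPM for the tumor, with log2 ratios of 1.74 [1.24, 2.22] and 0.63 [-0.14, 1.31], and CCR7+ CD8 cells had 135 and 100 FPM. Trdc, the constant segment of the gamma-delta receptor, lay below the minimum at 13.4 and 12.3 FPM against 1.7 and 1.3 FPM, with 77.8 and 68.0 FPM in Cytotoxic gdT cells. Of the other gamma-delta genes, Sox13 had 2.10 and 1.44 below the minimum and Blk was lower, with -2.27 and -3.25.

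Markers of other cell types were summed, and their part in the results was not tested. The summed level of 6 B cell genes was 150 FPM against 156 FPM for the cecum and 178 against 153 FPM for the tumor, most of it in the Cd79a window, which overlaps Rps19 and Arhgef1, while Ms4a1 had 2 fragments in each library and Pax5 had log2 ratios of -2.30 and -1.36. Ebf1, a B lineage factor, stood at 36.0 FPM for the cecum, the highest of the labels with at least 50 cells, and 26.03 FPM for the tumor, with 0.80 [0.31, 1.26] and 0.06 [-0.68, 0.72]. Cd79b, from 15 and 16 fragments, had 0.76 [-0.11, 1.54] and 1.53 [0.69, 2.27]. The 6 myeloid genes summed to 187 against 160 FPM and 162 against 159 FPM, with medians of 0.41 and 0.30 over the 3 members at the minimum. Spi1, which encodes the myeloid and B cell factor PU.1, had 58 and 42 fragments (0.42 [0.0042, 0.81] and 0.52 [0.03, 0.96]) and Itgam, the integrin chain CD11b, 71 and 30 (0.99 [0.61, 1.35] and 0.31 [-0.26, 0.84]), while Cebpa had -2.75 and -2.18 and Lyz2 0 and 1 fragments. The 10 epithelial genes had 85.5 against 124 FPM and 141 against 139 FPM, with Krt8 and Krt20 at 0 in both libraries. By level among the labels with at least 50 cells, tumor Hnf4a and Cdx2 (12 and 7 fragments) ranked 1, Vil1 4 and Cdx1 7. The other epithelial genes ranked 11 to 16 there. In the cecum Cdx2 ranked 3, Cdx1 4 and Epcam 5, and the others 12 to 16. The 5 genes of innate-like T or NK cells had 117 against 153 FPM and 136 against 157 FPM, with Ncr1 at 0 and Zbtb16 lower (-1.36 and -1.13). Most of these sums, 92.2 and 89.1 FPM, lay in the Tyrobp window, which overlaps Hcst and Nfkbid. Among labels with at least 50 cells, Klrb1c (7 and 12 fragments) ranked 15 for the cecum and 5 for the tumor. Fcer1g (3 and 6 fragments) ranked 16 and 14. The 3 gamma-delta genes had 41.9 against 46.8 FPM and 38.4 against 61.0 FPM.

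Over all genes, 170 were at least 2-fold higher and 196 lower in both libraries. Within 1 kb of either gene end, in place of the whole window, the counts were 28 and 25. Fewer genes reached the minimum in that smaller window, among them 2 of the 21 leading genes. At a minimum of 50 FPM both counts were smaller and at 10 FPM the lower count was larger, as listed at the end. Ranked by the bound of the interval nearest 0, the 10 leading higher genes held no gene of the lists above. Dmbt1, a secreted scavenger receptor protein, stood at 38.6 and 45.2 FPM against 2.5 and 2.6 FPM, and Khdrbs3, an RNA-binding splicing factor, at 49.5 and 53.4 FPM against 3.4 and 3.2 FPM. Their log2 ratios were 3.95 [3.33, 4.58] and 4.15 [3.48, 4.79] for Dmbt1, and 3.85 [3.31, 4.39] and 4.05 [3.45, 4.63] for Khdrbs3. Atp1b1, the beta subunit of the sodium-potassium pump, stood at 116 and 100.01 FPM against 12.3 and 7.2 FPM, with 3.24 [2.92, 3.55] and 3.79 [3.37, 4.20].

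The next were Tspan9, a tetraspanin (2.78 and 3.11), Arpp21, a cAMP-regulated phosphoprotein (3.17 and 2.97), Flt3, a cytokine receptor known from early progenitors (2.73 and 3.43), and Aox2, an aldehyde oxidase (2.65 and 2.48). Spsb4 (2.48 and 2.64), the adhesion molecule Chl1 (2.99 and 2.51) and the sortilin family receptor Sorcs2 (2.13 and 2.42) completed the 10. CCR7+ CD8 cells also lay above the other CD4 labels in each of these 10 windows, from 14.6 FPM for Khdrbs3 to 234 FPM for Tspan9 in the tumor.

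Among the lower genes, Lama3, a laminin chain, had no fragment for the cecum and 4 for the tumor against 51.9 and 102 FPM, which is at least 20.6-fold lower in the cecum and a log2 ratio of -4.22 [-6.09, -2.86] in the tumor. Its neighbour Ttc39c had -2.21 and -2.50. Srxn1, the sulfiredoxin that repairs oxidized peroxiredoxins, stood at 5.9 and 4.1 FPM against 65.5 and 73.5 FPM, from 7 and 3 fragments, with -3.48 [-4.80, -2.43] and -4.16 [-6.44, -2.61]. Nckap5 (-5.44 and -3.73), Gas7 (-5.53 and -3.39), Arnt2, a partner of PAS domain factors (-3.31 and -4.42), Klf12 (-3.51 and -3.27), Myo1e, a myosin (-2.88 and -3.68), and the granzyme gene Gzmk (-5.02 and -3.64) were lower as well, beside Il10. In Gas7 and Gzmk the cecum values rest on 2 fragments, with intervals of [-8.58, -3.68] and [-8.07, -3.16], and in Arnt2 and Gzmk the tumor values rest on 3, with [-6.70, -2.87] and [-5.92, -2.09].

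**Figure D3:**
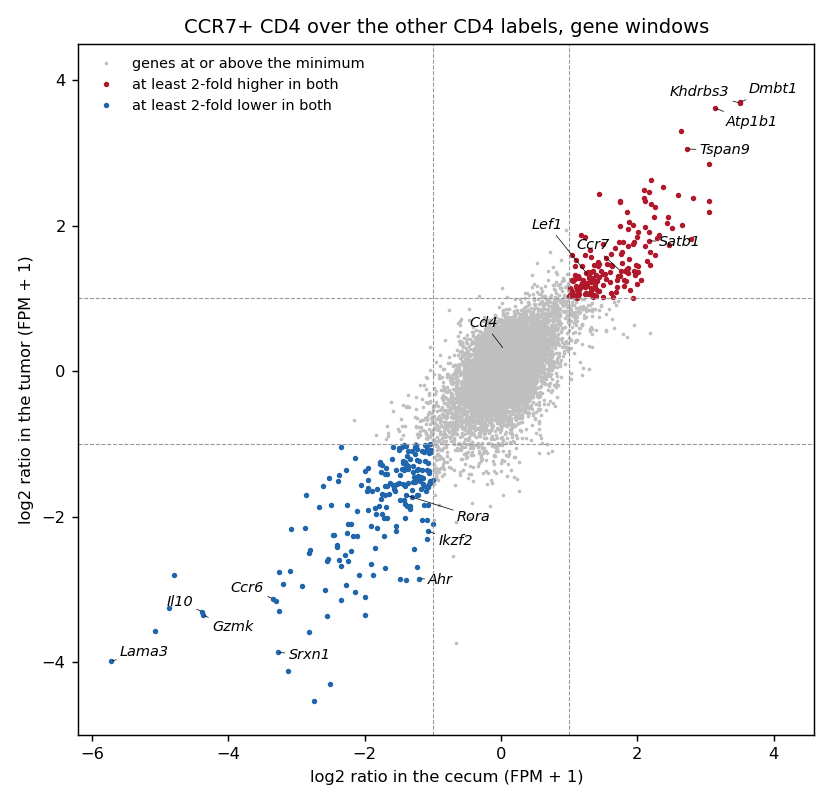
Log2 ratio of CCR7+ CD4 over the other CD4 labels in the cecum (horizontal axis) and the tumor (vertical axis), with 1 FPM added, for 11789 genes. Red points are the 170 genes at least 2-fold higher and blue points the 196 at least 2-fold lower in both libraries, and dashed lines mark 2-fold. Khdrbs3, Dmbt1 and Atp1b1 lie at the upper right, Ccr7, Lef1 and Satb1 closer to the lines, and Cd4 among the grey points.

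Atp1b1 and Srxn1 differed at the start site as well as in the rest of the window, and the 250 bases before each start are shown, taken from RefSeq (build GRCm38.p6) and written 5′ to 3′ on the strand of the gene. They were chosen after the values were seen. Capitals mark matches to the AP-1 motif TGANTCA, which reads the same on both strands. The Atp1b1 window lies at chr1:164458356-164458605 on the minus strand and the Srxn1 window at chr2:152105274-152105523 on the plus strand.
Atp1b1: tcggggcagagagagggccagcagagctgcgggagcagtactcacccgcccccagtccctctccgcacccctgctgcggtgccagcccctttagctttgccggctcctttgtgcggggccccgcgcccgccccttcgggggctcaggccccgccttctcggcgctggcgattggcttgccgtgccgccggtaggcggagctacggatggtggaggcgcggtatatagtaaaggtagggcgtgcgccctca
Srxn1: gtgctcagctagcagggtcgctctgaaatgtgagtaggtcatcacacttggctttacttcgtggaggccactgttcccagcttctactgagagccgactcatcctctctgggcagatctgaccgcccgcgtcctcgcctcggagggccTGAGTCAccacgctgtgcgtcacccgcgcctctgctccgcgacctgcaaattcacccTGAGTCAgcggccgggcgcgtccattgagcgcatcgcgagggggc

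Within 1 kb of this start, Atp1b1 stood at 82.2 and 71.2 FPM in CCR7+ CD4 cells, 50.4 and 50.7 FPM in CCR7+ CD8 cells and 7.6 and 4.3 FPM in the other CD4 labels. The log2 ratios over the other CD4 labels were 3.43 [3.04, 3.81] and 4.06 [3.55, 4.57] there, and 2.85 [2.27, 3.41] and 3.28 [2.50, 4.01] in the rest of the window. Srxn1 had 4 fragments at its start for the cecum and 1 for the tumor, 3.4 and 1.4 FPM against 42.7 and 44.2 FPM, with -3.67 [-5.55, -2.31] and -5.01 [-10.32, -2.53]. The rest of its window, with 3 and 2 fragments, had -3.18 [-5.46, -1.62] and -3.42 [-6.47, -1.56]. The 2 AP-1 matches of Srxn1, TGAGTCA at 102 to 96 and at 45 to 39 bases before the start, lie in the part within 1 kb of the start.

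Matches to TGANTCA occurred in the 250 bases before the start of 15 of 144 lower genes with an entry (10.4%), 7 of 131 higher genes (5.34%) and 3.80% of the 9541 genes at the minimum, against 6.75% of all 32851 promoters. The TCF and LEF motif TCAAAG, searched on both strands, occurred in 13.7% of higher genes, 14.6% of lower genes, 10.5% of genes at the minimum and 13.8% of all promoters. The ETS motif CGGAAG occurred in 10.7% of higher and 14.6% of lower genes, 27.1% of genes at the minimum and 13.6% of all promoters. The KLF motif CCACACCC had 3.05% of higher and 6.25% of lower genes, and 3.49% of genes at the minimum. In the same order, the RUNX motif TGTGGT had 9.92%, 13.9% and 10.4%, and the FOXO motif GTAAACA 1.53%, 0.694% and 1.98%. These shares describe letters in a window and were not tested.

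**Figure D4:**
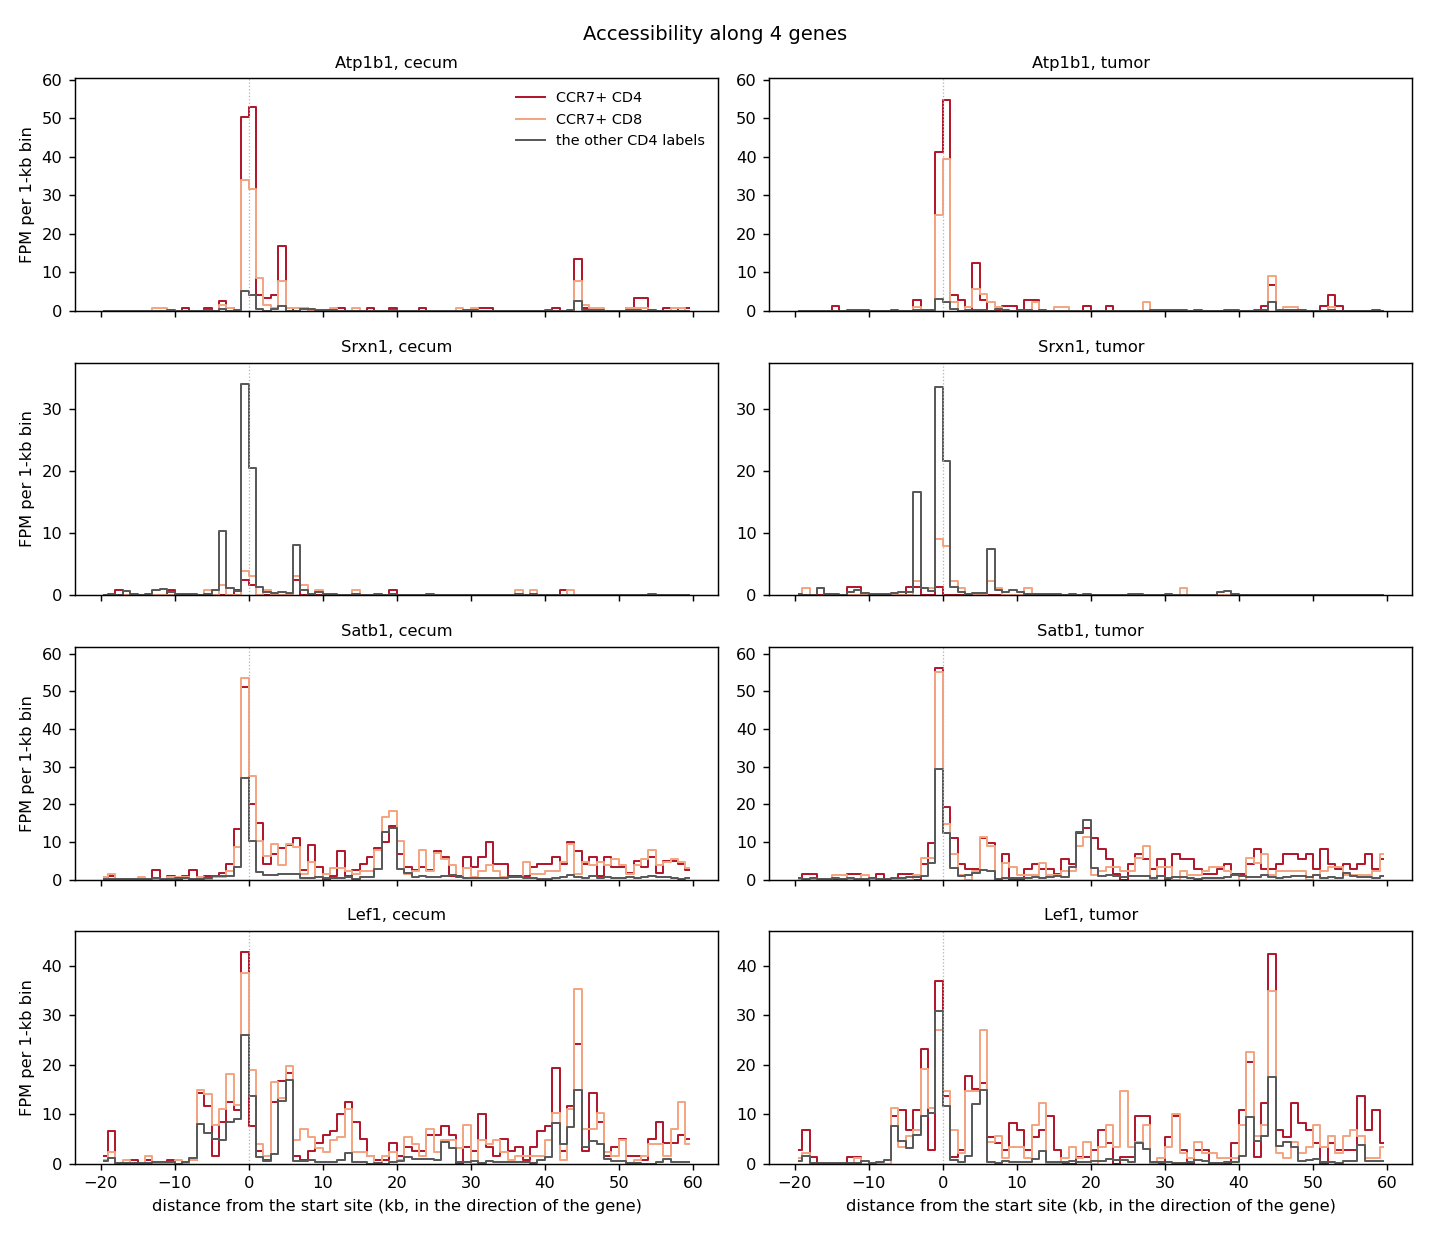
FPM in bins of 1 kb (vertical axes) by distance from the start site in the direction of the gene (horizontal axes) for Atp1b1, Srxn1, Satb1 and Lef1, with the cecum on the left and the tumor on the right. The Lef1 start lies inside the gene. Lines are CCR7+ CD4 (red), CCR7+ CD8 (orange) and the other CD4 labels (grey). The Atp1b1 start is tall in both CCR7+ labels, the Srxn1 start in the other CD4 labels, and Satb1 and Lef1 carry more signal over the gene body in the CCR7+ labels.

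The 170 higher and 196 lower genes were chosen against the other CD4 labels, so their levels in the remaining labels are a description. The median level of the 170 was 64.1 FPM for the cecum and 62.3 FPM for the tumor in CCR7+ CD4 cells, and 57.9 and 50.1 FPM in CCR7+ CD8 cells. Innate-like T#1 had 36.7 and 41.5 FPM, Innate-like T#2 39.6 and 40.8 FPM, and the remaining labels with at least 50 cells 14.5 to 28.6 FPM. The 196 had 18.4 and 19.2 FPM in CCR7+ CD4 cells, 24.8 and 37.2 FPM in CCR7+ CD8 cells and 45.4 to 75.4 FPM in the remaining labels.

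At the same minimum level, a larger share of distal regions than of regions near gene ends passed 2-fold. Regions of 500 bp were counted as distal when their middle lay over 2 kb from both ends of every annotated gene, with a minimum mean of 10 FPM. Start sites inside a gene were not treated as gene ends. The region with the Lef1 start used above (chr3:131112501-131113000) thus counted as distal. Of 5918 distal regions 370 were at least 2-fold higher (6.25%) and 460 lower (7.77%) than in the other CD4 labels, against 0.77% and 0.903% of 17272 regions near gene ends. At a minimum of 20 FPM the shares were 2.42% and 3.69% of 1899 distal regions and 0.27% and 0.229% of 9625 regions near gene ends. Of the 370 higher distal regions 59.5% lay within coding genes, of the 460 lower ones 58.5%, and of all 5918 regions 66.2%. The median level of the 370 was 22.6 and 24.7 FPM in CCR7+ CD4 cells against 7.0 and 6.5 FPM in the other CD4 labels, with 20.5 and 16.9 FPM in CCR7+ CD8 cells.

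The leading higher distal region, ranked in the same way, lay within Adamts14 (chr10:61233001-61233500, mm10), at 23.5 and 27.4 FPM against 0.7 and 0.9 FPM, with log2 ratios of 5.03 [4.03, 6.10] and 5.01 [4.03, 5.99]. A region within Ripor2 (chr13:24547001-24547500), stood at 38.6 and 57.5 FPM against 2.0 and 1.9 FPM, with 4.24 [3.58, 4.90] and 4.93 [4.28, 5.59]. Others lay within Aox2 (chr1:58301001-58301500, 4.11 and 4.12), within Dip2b (chr15:100182501-100183000, 3.99 and 4.35) and outside coding genes (28.5 and 32.9 FPM against 1.7 and 0.5 FPM). The 5 leading lower regions had 1 or 2 fragments for the cecum and none for the tumor. They lay within Ankrd44 (chr1:54660501-54661000), Osbpl3 (chr6:50394001-50394500) and Cdk6 (chr5:3494501-3495000), 23.81 kb from Uspl1 (chr5:149160501-149161000) and 55.58 kb from Cd44 (chr2:102957001-102957500), and stood at 27.2 to 42.4 FPM in the other CD4 labels of the cecum.

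Around the marker genes, regions of any kind within 50 kb were examined. Of all 23190 regions 2.17% were higher and 2.66% lower, and of the 5918 distal ones 6.25% and 7.77%. Near Ccr7 3 of 11 were higher, 2 of them among the 9 distal ones, and 1 was lower. The leading one lay 15.67 kb from Ccr7 (chr11:99170501-99171000) in the predicted gene Gm32249, at 21.8 and 23.3 FPM against 2.5 and 2.9 FPM, with 3.10 [2.35, 3.82] and 3.02 [2.16, 3.81]. The other higher distal region adjoins it (chr11:99171001-99171500), and a fragment with an end in each was counted in both. Near Tcf7 3 of 11 were higher, all of them among the 8 distal ones. The leading one lay 30.37 kb from Tcf7 (chr11:52313501-52314000), at 17.6 and 21.9 FPM against 2.9 and 2.1 FPM, with 2.59 [1.78, 3.34] and 3.38 [2.46, 4.22], and the adjoining region had 46.1 and 78.1 FPM against 21.0 and 13.8 FPM. None of 7 regions near Lef1 or 13 near Cd4 passed 2-fold in both libraries. The leading Lef1 region, within the gene (chr3:131157501-131158000), had 0.66 [-0.05, 1.30] and 1.28 [0.63, 1.87].

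CCR7+ CD8 cells were the label nearest to CCR7+ CD4 cells. Across 12125 genes, with every label of at least 50 cells thinned to 426832 fragments (which leaves out the 14 PD1+ CD4 cells of the cecum), the Pearson r of log levels between CCR7+ CD4 and CCR7+ CD8 cells was 0.886 for the cecum and 0.878 for the tumor, beside 0.896 between the CCR7+ CD4 cells of the 2 libraries. Tfh-like cells followed with 0.828 and 0.841 and Newly activated CD4 cells with 0.811 and 0.837, and CD8aa cells were lowest with 0.723 and 0.743. These correlations are across genes, which are not independent, and labels of one library share its depth and preparation.

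Of 11677 genes, 9 were at least 2-fold higher (0.0771%) and 33 lower (0.283%) in CCR7+ CD4 than in CCR7+ CD8 cells in both libraries. The counts were 0 and 5 within 1 kb of either gene end, and 0 and 8 at a minimum of 50 FPM. Fewer genes reached the minimum in these settings, among them 2 and 3 of the 12 leading genes and their neighbours. Both counts rose at a minimum of 10 FPM. The higher count also rose without cells above 3 times the library median, as listed at the end. The CD8 co-receptor genes were among the lower ones. Cd8a stood at 12.6 and 13.7 FPM against 83.5 and 70.9 FPM, with -2.73 [-3.62, -1.94] and -2.37 [-3.50, -1.40], and Cd8b1 had -1.88 [-2.39, -1.39] and -2.02 [-2.84, -1.28]. The Nkg7 window had -2.25 [-3.19, -1.41] and -2.41 [-3.60, -1.38], its neighbour Lim2 -2.86 and -3.15, Cables1 -2.28 and -2.80, and Nmnat2 -1.67 and -2.00. Cdhr3, a cadherin family gene, led the higher genes against CCR7+ CD8 cells, at 82.99 and 72.6 FPM against 25.2 and 18.0 FPM, with 1.72 [1.13, 2.34] and 2.01 [1.18, 2.92]. Khdrbs3 had 1.51 [0.79, 2.29] and 1.87 [0.93, 2.90], and Chdh, a choline dehydrogenase (1.19 and 1.47), Tmprss4 (1.43 and 1.72) and Tceal3 (1.45 and 1.58) followed. Without cells above 3 times the library median, the smaller of the ratios of both libraries, here with 1 FPM added, was 0.98 for Cdhr3 and 0.80 for Tceal3. Both lay below 2-fold, Cdhr3 only just. None of the 16 naive and recirculation genes passed 2-fold, with medians of -0.05 and 0.16, and Cd4 and Zbtb7b stood at 73.2 and 105 FPM in CCR7+ CD8 cells of the cecum, beside 94.7 and 176 FPM.

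Against Newly activated CD4 cells, 129 of 11643 genes were higher (1.11%) and 122 lower (1.05%) in both libraries, a reference with 77 cells for the cecum and 523 for the tumor. The counts were 20 and 20 within 1 kb of either gene end, and 39 and 38 at a minimum of 50 FPM. Fewer genes reached the minimum in these settings, among them 1 of the 10 leading genes in each. The leading higher genes were Arpp21 (3.74 [2.16, 6.04] and 3.40 [2.65, 4.20]), Khdrbs3 (4.40 [1.87, 9.73] and 4.74), Atp1b1 (2.82 and 3.84), Adamts14 (3.09 and 2.55) and Dmbt1 (4.04 [1.49, 9.38] and 4.08). The leading lower genes were Mfap5 (-4.84 [-6.78, -3.38] and -4.93 [-10.24, -2.42]), Gzmk (-4.65 [-7.80, -2.59] and -3.66 [-5.96, -2.09]), Il10 (-3.88 and -3.38), Gas7 (-5.07 [-8.19, -3.06] and -3.03) and Krt83 (-3.57 and -4.94 [-10.25, -2.44]). In the naive and recirculation list 5 of 16 genes were higher, with medians of 0.67 and 0.49, and in the type 1 list 4 of 7 genes at the minimum were lower, with medians of -1.30 and -1.59. S1pr1 stood at 94.7 and 87.7 FPM beside 58.6 and 78.1 FPM in Newly activated CD4 cells.

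Single cells were compared after each was thinned to 2000 fragments, which left out 26 shallower CCR7+ CD4 cells of the cecum and 51 of the tumor. The 99 and 113 cells kept had a median of 10 and 9 fragments in the 16 naive and recirculation windows, with most cells between 5 and 14. The other CD4 labels had a median of 5 in 2146 and 2356 cells. Fragments in these windows outnumbered those in the type 1, 2 and 17 effector windows in 99 of 99 and 113 of 113 CCR7+ CD4 cells, in 81.5% and 81.3% of other CD4 cells and in 98.4% and 97.1% of CCR7+ CD8 cells. Such an excess was seen in most cells of every label, among them 77.6% and 83.1% of Mucosal Th1 cells. In the other CD4 labels of the cecum the naive windows summed to 2519 FPM, and the type 1, 2 and 17 windows to 500, 152 and 229 FPM. No effector fragment was seen in 46.5% and 40.7% of CCR7+ CD4 cells and in 19.99% and 17.6% of other CD4 cells. The shares were 30.6% and 30.8% in CCR7+ CD8 cells and 29.4% and 42.3% in Tfh-like cells, whose tumor share lay above that of CCR7+ CD4 cells.

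A Ccr7 fragment was found in 44.4% [34.5, 54.8] of thinned CCR7+ CD4 cells of the cecum and 34.5% [25.8, 44.0] of the tumor, intervals that overlap. Unthinned the shares were 71.2% and 48.8%, at median depths of 8588 and 3898.5 fragments. In Cytotoxic CD8 cells, taken as a label with little Ccr7, the thinned shares were 12.7% and 10.8%, and in CCR7+ CD8 cells 28.2% and 41.3%. A Cd4 fragment was found in 9.09% [4.24, 16.6] of thinned CCR7+ CD4 cells of the cecum and 18.6% [11.9, 26.99] of the tumor, beside 12.1% and 10.6% of CCR7+ CD8 cells, 12.5% and 14.8% of Newly activated CD4 cells and 7.99% of Cytotoxic CD8 cells in each library. The interval of CCR7+ CD8 cells was [6.93, 19.2] for the cecum and [5.4, 18.1] for the tumor, and overlapped that of CCR7+ CD4 cells in both.

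**Figure D5:**
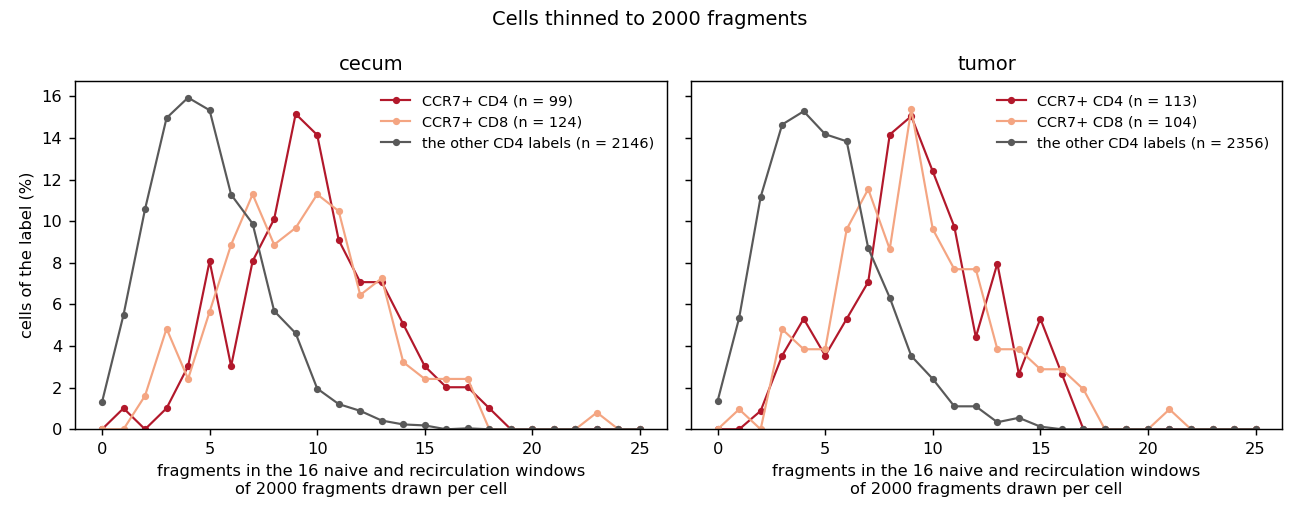
Share of cells (vertical axes) by the number of fragments in the 16 naive and recirculation windows among 2000 fragments drawn per cell (horizontal axes), for CCR7+ CD4 (red), CCR7+ CD8 (orange) and the other CD4 labels (grey) in the cecum (left) and the tumor (right). CCR7+ CD4 cells peak near their medians of 10 and 9 fragments and the other CD4 labels near 5, and the distributions overlap.

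Between tissues, the intervals of CCR7+ CD4 cells included 0 at Ccr7, Cd4, Lef1 and Satb1. Tumor over cecum, the log2 ratio was -0.08 [-0.38, 0.21] for Ccr7, -0.0030 [-0.46, 0.44] for Cd4, 0.04 [-0.15, 0.22] for Lef1 and -0.16 [-0.35, 0.02] for Satb1, and no gene of the naive and recirculation list passed 2-fold. Foxp1, of the same list, had -0.23 [-0.36, -0.09], and -0.14 [-0.32, 0.04] without cells above 3 times the library median. Of the pan T cell genes, Cd3e had -0.67 [-1.22, -0.14], and -0.59 [-1.28, 0.10] without those cells, and its neighbour Cd3d had 0.40 [0.02, 0.77]. Over 11886 genes, 42 were at least 2-fold higher (0.353%) and 87 lower (0.732%) in the tumor. These genes had a median of 50 and 59 fragments over both libraries, and tissue and library cannot be told apart. Without cells above 3 times the library median the counts were 146 and 148, of which 22 and 48 were among the 42 and 87. Scaled to fragments near gene ends they were 24 and 141, and with 5 FPM added in place of 1 they were 20 and 41. The part of the difference in depth, fragment length and share near gene ends, whose values are given above, was not tested.

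The list genes past 2-fold were Ahr, the aryl hydrocarbon receptor that senses dietary and microbial ligands, and Ikzf2. Ahr had 38 fragments for the cecum and 6 for the tumor, 31.9 and 8.2 FPM, with a log2 ratio of -1.95 [-3.49, -0.70], while the other CD4 labels had -0.18. Ikzf2 stood at 109.8 and 53.4 FPM, with -1.04 [-1.59, -0.51]. Without cells above 3 times the library median, which removes 44 cecum cells and 1 tumor cell, these were -2.42 [-4.22, -0.90] and -1.10 [-1.74, -0.47]. Cxcr6, a receptor of tissue T cells, had 0.90 [0.21, 1.58] and without those cells 0.46 [-0.40, 1.37], and Jun 0.35 [0.06, 0.63] and then 0.03 [-0.32, 0.38].

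By rank of the interval, the leading genes higher in the tumor were Marchf1 (1.75 [0.85, 2.71]), Sestd1 (1.52 [0.78, 2.29]), Lrp1b (1.49), P2ry6, a receptor for uridine diphosphate (1.42), and Terf2ip, a telomere protein (1.29). Beside them stood values in the other CD4 labels of -0.02, 0.90, -0.17, 0.07 and -0.05. The lower ones, beside Ahr, were Jsrp1 (-2.49 [-4.18, -1.17]) in a locus with Amh, Atp9a (-1.95), Sbp (-1.94) and Nit1 (-1.78). Each of these 4 rested on 5 to 8 tumor fragments. The 10 epithelial genes summed to 85.5 FPM for the cecum and 141 FPM for the tumor, with Cdh1 alone at the minimum. Cdh1 had 0.98 [0.37, 1.59], and 0.71 [-0.07, 1.55] without cells above 3 times the library median. Hnf4a had 1.97 [0.36, 3.83] from 5 and 12 fragments and Vil1 1.03 [-0.16, 2.26] from 12 and 15. Lgr5 (2 and 3 fragments), Krt18 (2 and 2) and Cdx2 (11 and 7) also stood at a higher FPM in the tumor, Epcam (22 and 9, -0.58 [-1.88, 0.60]) and Cdx1 (4 and 2) at a lower one, and Krt8 and Krt20 had no fragment. The part of epithelial fragments in the differences between tissues was not tested.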

How the data were processed

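Nuclei of sorted T cells from cecum and tumor were profiled by 10x multiome, and the 2 ATAC libraries were analysed. Per the submitters' processing notes, the authors ran Cell Ranger ARC 2.0.0 with the mm10 build. Each line deposited by the authors is a deduplicated fragment with a barcode and a read pair count, and 1 line was counted as 1 fragment. The deposited metadata gave the library and the label of each cell, and the 2 RNA libraries were not analysed here. Filtering and labels are the authors'. Whether doublets had been removed is not stated, and no doublet caller was run. The cecum library held 66466111 fragments and the tumor library 96747563, of which CCR7+ CD4 cells held 1192883 and 729919.

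Fragments on chromosomes 1 to 19, X and Y with an end inside a gene's span with 5 kb on either side were counted for 21883 coding genes of RefSeq GRCm38.p6 and 2 listed genes that are not coding, and scaled to FPM. Regions were 500 bp. Ratios are printed without a pseudocount unless stated, with exact conditional intervals. Counts past 2-fold and list medians used 1 FPM added, which understates differences of low genes. Shares have Clopper-Pearson intervals and levels exact Poisson intervals. A count of 0 was set to a floor of 3 fragments per library for lower bounds. Groups had 1 library per tissue, so no test was made. The 8 other CD4 labels were summed as reference, in which labels with more fragments weighed more. In the cecum the largest parts were IL-10+ Treg (5709704 fragments), Mucosal Th1 (5275674) and IL-10- Treg (3000774) cells. In the tumor they were PD1+ CD4 (6143256), IL-10- Treg (5805456) and Newly activated CD4 (2997419) cells. The ratios of cecum and tumor thus rest on different mixtures of labels. CCR7+ CD8 and Newly activated CD4 cells were used as further references.

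Named genes were the members of the lists described, and those past 2-fold in both libraries ranked by the interval bound nearest 0, 10 per direction against the other CD4 labels and 5 per direction elsewhere, with neighbours within 10 kb joined to 1 locus. Some genes these rules select are not reported here. The members and lists were chosen with earlier results of these data known. Start-site windows, the promoters shown and the omission of cells whose barcode is labelled in both libraries were chosen after seeing the data. Promoters came from RefSeq (GRCm38.p6). Other settings for the window, minimum, pseudocount, scaling and cells were tried, and an unweighted mean over the other CD4 labels as reference. With that mean the 21 leading genes against the other CD4 labels stayed past 2-fold. The scripts were tested on simulated data, and ran in Python 3.11.15 with scipy 1.17.1, pandas 2.3.3, matplotlib 3.10.9, numba 0.67.0 and numpy 2.4.6.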

Additional observations from a re-analysis of the deposited data

Results flagged for a closer look

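The median number of fragments per CCR7+ CD4 cell in the tumor was 0.454 times that in the cecum (3898.5 against 8588). It was set apart because 14 of 17 labels had a higher median in the tumor, with ratios of 1.15 to 1.76, while CCR7+ CD8 cells had 0.656 and Tfh-like cells 0.832. The difference between labels was not tested.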

How the results depend on the processing

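No paired analysis was possible because each tissue had 1 library, and for the same reason no replicate could be left out. Of the values recomputed for the main comparisons under other settings, 214 stayed close to their value (a share or ratio inside its 95% interval, a list median inside the medians of its members' interval bounds, a count within 1.5 times), 47 moved and 1 reversed, and the cause was not tested. Without cells above 3 times the library median, the share of CCR7+ CD4 cells in the cecum was 1.31%, 15 genes were higher than in CCR7+ CD8 cells, 146 genes were higher and 148 lower in the tumor than in the cecum, and the CD8 lineage median in the cecum was 0.62. The intervals of the cecum and tumor shares did not overlap in that setting, which took out 44 cecum cells and 1 tumor cell of the label. Among cells with a CD4 label the shares were 4.07% and 5.35%. Within 1 kb of either gene end, Lef1 had 0.71 and 0.55, the counts of higher and lower genes were 28 and 25 against the other CD4 labels, 0 and 5 against CCR7+ CD8 cells and 20 and 20 against Newly activated CD4 cells, and list medians were -0.081 (type 1, tumor), 0.26 (type 2, cecum, reversed), -0.25 (type 2, tumor), -1.06 (type 17, tumor), 0.60 (follicular helper, cecum) and -0.014 (activation factors, tumor). Within 1 kb of the start site, a window chosen after seeing the data, Lef1 had 0.34 and 0.18, 21 genes were higher and 20 lower than in the other CD4 labels, and 52 were lower in the tumor than in the cecum. At a minimum of 50 FPM the counts of higher and lower genes were 60 and 65 against the other CD4 labels, 0 and 8 against CCR7+ CD8 cells, 39 and 38 against Newly activated CD4 cells and 2 and 8 for tumor over cecum. At 10 FPM they were 331 lower against the other CD4 labels, 15 and 65, 199 and 225, and 116 and 192 in the same order. Scaled to fragments near gene ends, 24 genes were higher and 141 lower in the tumor. With 5 FPM added these were 20 and 41, and 228 distal regions were higher than in the other CD4 labels. At a minimum of 20 FPM 46 distal regions were higher and 70 lower. Against CCR7+ CD8 cells without cells above 3 times the library median, Cdhr3 (0.98) and Tceal3 (0.80), with 1 FPM added, no longer reached 2-fold. The genes past 2-fold between tissues rested on a median of 50 and 59 fragments. Counts in a smaller window or at a minimum of 50 FPM were taken over the smaller set of genes that reached the minimum.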
